A study of Mus musculus with 6 samples.

Results

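Expression of 37 genes of glycolysis and of the response to low oxygen was compared between normal mouse gastric corpus and Yap-activated gastric cancer. The genes were taken by symbol from a count table of 21526 genes, where all 37 were found, and all 37 passed the filter on low counts. They fall into 23 genes of glycolysis (glucose uptake, the enzymes of each step, lactate handling and the Pfkfb regulators), 4 genes of oxygen sensing and 10 other genes known to be induced by hypoxia. The tissue was corpus epithelium released with EDTA, in 3 Normal libraries from wild-type mice and 3 Yap-activated libraries. The Yap-activated mice carried the alleles CluCreERT2, R26rtTA and HA-Yap+, that is, a tamoxifen-dependent Cre at the Clu gene, a doxycycline-dependent activator at Rosa26 and an HA-tagged Yap transgene. Mice of both groups were given 2 mg tamoxifen on each of 5 days and doxycycline food for the final 14 days. Wild-type mice lack all 3 alleles, so any effect of Cre or of the activator cannot be told apart from that of the Yap transgene. The labels do not give the number of mice behind the libraries or their age.

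Glycolysis splits glucose into pyruvate in the cytosol, and lactate dehydrogenase can turn that pyruvate into lactate, which leaves the cell through monocarboxylate transporters. Most steps have several isozymes that different genes encode and that tissues use in different proportions. Under low oxygen the prolyl hydroxylases of the Egln family stop marking the HIF alpha subunits for destruction, and HIF then binds hypoxia response elements, with the core A or G followed by CGTG, near many of the glycolytic genes and near genes of angiogenesis, mitophagy, collagen hydroxylation and lipid storage. The acid-secreting parietal cells of the normal corpus are rich in mitochondria and rely on oxidative metabolism.

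Library totals ran from 25580734 to 48440033 counts, the lowest being that of Yap-activated replicate 1. Of 14600 genes tested, 59.5% passed the threshold, 29.8% higher and 29.7% lower in Yap-activated tissue, and the groups did not overlap at 67.6%. Levels are TMM-scaled CPM, that is, counts relative to the library total after scaling by the trimmed mean of M-values. Scaling by library totals alone raised the all-gene median by 0.49 (log2), and 76.6% of the genes called were then higher, against 50.0% with TMM. Of the genes listed as parietal markers, 6 were in the table: Atp4a, Atp4b, Kcne2, Kcnq1, Slc26a7 and Hdc. Whether each is specific to parietal cells here was not tested. Their summed level ran from 21523 to 29304 CPM in Normal and from 42.0 to 74.6 CPM in Yap-activated libraries. The summed level of the 4 chief cell markers, 1 of them at 0 throughout, ran from 87908 to 137667 and from 152 to 186 CPM. Summed neutrophil and macrophage markers, 11 genes, ran from 137 to 141 CPM in Normal and stood at 1239, 366 and 892 CPM in Yap-activated replicates 1, 2 and 3. Summed squamous markers, 6 genes of which 1 rose, had 1.86, 32.0 and 0.537 CPM in Normal and 56.4, 65.8 and 50.2 CPM in Yap-activated libraries. Summed erythroid markers, none of which passed, had 55.2, 20.9 and 17.2 CPM in Normal and 155, 21.1 and 54.7 CPM in Yap-activated libraries. The part of these cells in the members' values was not tested. RNA was taken from all cells together, so fewer cells of a type and less RNA per cell cannot be told apart.

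Promoter windows (250 bases before to 50 after the start of transcription, RefSeq on GRCm38.p6) were found for 33 of the 37 genes. The genes with no entry were Slc2a3, Epas1, Bhlhe40 and Ndrg1. The motifs ACGTG and GCGTG were searched on both strands, as CACGT and CACGC on the printed strand for the opposite one, and CACGTG therefore holds ACGTG on both strands. ACGTG stood in the window of 24 of the 33 genes (72.7%), against 21.8% of 27025 genes with a window and 28.0% of 11501 tested genes with one. Either motif stood in 31 of 33 (93.9%), against 46.7% and 64.6%. The median GC content was 62.0% in windows of the members, 60.0% in those of tested genes and 52.7% in all windows, with a median of 20, 19 and 7 CpG dinucleotides. A gene with several windows counted once if any held the motif, and the members had 47 windows for 33 genes, against 14650 for 11501 tested genes and 32851 for all 27025. The part of base composition and of the number of windows in these shares was not tested. By direction, ACGTG stood in 15 of 19 genes that rose, 2 of 4 that fell and 7 of 10 that did not pass. This is a description of letters, not of binding. The members were chosen as genes of glycolysis and of the hypoxia response, near many of which HIF elements are known. A share above that of all genes could come from this choice alone, which was not tested. Ldha has another window, not shown. The windows below belong to the member that fell most (Ldhb) and its sister isozyme that rose (Ldha), the member that rose most (Slc16a3), the hexokinase that rose (Hk2), a mitophagy gene with matches of both motifs (Bnip3), and a riser with neither (Tpi1). Capitals mark the matches.
Ldha, chr7:46845554-46845853, plus strand: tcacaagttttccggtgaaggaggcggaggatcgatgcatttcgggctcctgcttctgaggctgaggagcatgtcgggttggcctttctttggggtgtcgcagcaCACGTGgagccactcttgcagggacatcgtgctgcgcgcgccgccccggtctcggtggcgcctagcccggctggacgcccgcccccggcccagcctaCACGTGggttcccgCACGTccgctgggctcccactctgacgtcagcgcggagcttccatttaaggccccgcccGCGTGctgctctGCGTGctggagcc
Ldhb, chr6:142507908-142508207, minus strand: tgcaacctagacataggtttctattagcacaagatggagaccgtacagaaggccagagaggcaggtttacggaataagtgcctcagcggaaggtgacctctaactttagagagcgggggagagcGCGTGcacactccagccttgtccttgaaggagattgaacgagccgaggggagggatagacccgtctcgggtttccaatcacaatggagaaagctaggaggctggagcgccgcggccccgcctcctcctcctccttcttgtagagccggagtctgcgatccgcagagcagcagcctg
Slc16a3, chr11:120948817-120949116, plus strand: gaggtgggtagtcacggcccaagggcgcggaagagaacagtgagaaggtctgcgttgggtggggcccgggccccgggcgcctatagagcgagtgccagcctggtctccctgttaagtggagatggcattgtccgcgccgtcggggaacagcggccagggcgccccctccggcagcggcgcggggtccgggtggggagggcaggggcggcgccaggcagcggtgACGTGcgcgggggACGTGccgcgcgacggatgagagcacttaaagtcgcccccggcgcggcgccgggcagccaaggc
Hk2, chr6:82774405-82774704, minus strand: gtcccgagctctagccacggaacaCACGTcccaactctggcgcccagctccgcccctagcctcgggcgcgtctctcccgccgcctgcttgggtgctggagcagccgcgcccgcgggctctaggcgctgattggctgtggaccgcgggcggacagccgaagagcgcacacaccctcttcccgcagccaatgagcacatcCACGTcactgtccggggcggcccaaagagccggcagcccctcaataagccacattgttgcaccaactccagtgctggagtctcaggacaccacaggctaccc
Bnip3, chr7:138909457-138909756, minus strand: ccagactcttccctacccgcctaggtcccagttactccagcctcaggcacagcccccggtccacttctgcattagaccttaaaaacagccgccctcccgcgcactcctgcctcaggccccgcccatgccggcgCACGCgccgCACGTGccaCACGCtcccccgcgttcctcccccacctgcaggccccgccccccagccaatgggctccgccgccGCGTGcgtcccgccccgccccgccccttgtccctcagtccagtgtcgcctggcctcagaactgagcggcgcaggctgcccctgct
Tpi1, chr6:124814109-124814408, minus strand: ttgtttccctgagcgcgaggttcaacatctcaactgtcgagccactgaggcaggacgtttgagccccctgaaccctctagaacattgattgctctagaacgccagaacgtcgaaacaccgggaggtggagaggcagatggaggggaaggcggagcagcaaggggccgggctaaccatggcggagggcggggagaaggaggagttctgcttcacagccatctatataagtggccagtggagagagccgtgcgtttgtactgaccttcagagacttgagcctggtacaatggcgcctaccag

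Of the 37 genes, 22 rose in Yap-activated tissue, 5 fell and 10 did not pass the threshold. The share called was 73.0%, against 59.5% of all genes tested, and the share higher was 59.5%, against 29.8%. The groups did not overlap at 26 of the 37, a share close to the 67.6% of all genes tested. The 5 that fell were Ldhb, Pfkm, Eno3 and Hk1, each an isozyme of a glycolytic step, and Epas1, a HIF alpha subunit. The range was wide, from a log2 fold change of -5.76 for Ldhb to 5.60 for Slc16a3. By over 2-fold in either direction 22 of the 37 genes differed, against 5112 of the 14600 genes tested. Hk3 is among the 22 and did not pass. The plot of CPM by library gives every value.

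**Figure D1:**
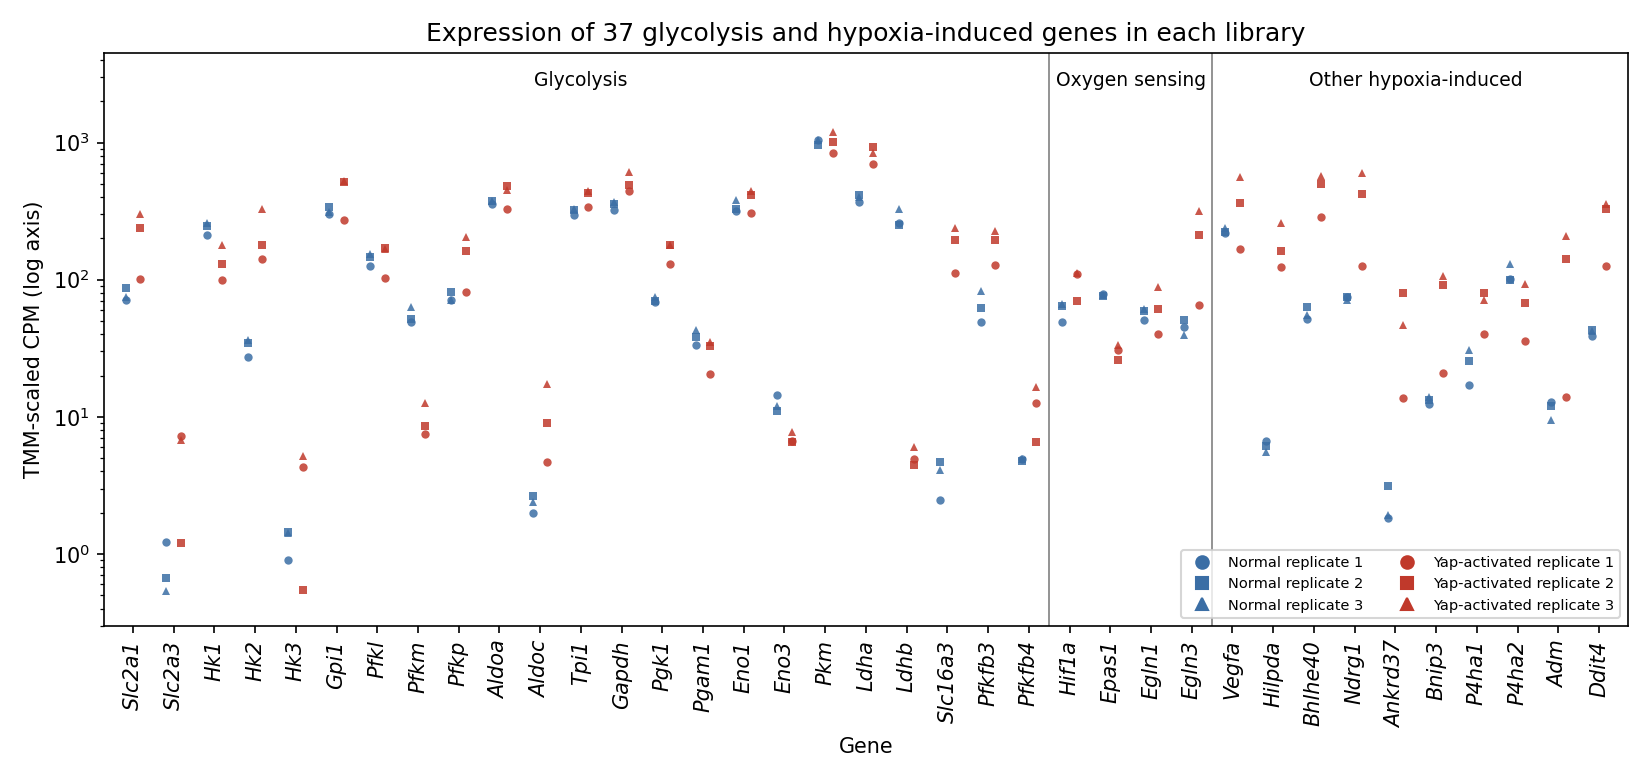
TMM-scaled CPM (log axis) of each of the 37 genes in each library, Normal in blue and Yap-activated in red, with the replicate given by the marker. Ldhb lies at 252 to 328 CPM in Normal and 4.48 to 6.03 CPM in Yap-activated libraries, and Slc16a3 at 2.48 to 4.68 and 112 to 238 CPM.

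Glucose enters cells through the Slc2a transporters, and both member transporters rose. Slc2a1, the widespread basal transporter GLUT1 (chromosome 4, 119108711 to 119137983, plus strand, GRCm38), had 70.8, 87.2 and 74.7 CPM in Normal replicates 1 to 3 and 101, 236 and 302 CPM in Yap-activated replicates 1 to 3. All Yap-activated libraries were above all Normal ones, replicate 1 by the least. Slc2a1 rose by 1.46 on the log2 scale (SE 0.37, adjusted p = 0.0124 by edgeR's quasi-likelihood F-test, as for all adjusted p-values that name no other tool). Leaving out Normal replicate 3 ended that call (1.43, adjusted p = 0.0523). Slc2a3, the high-affinity transporter GLUT3, was scarce, at 1.22, 0.665 and 0.537 CPM in Normal and 7.29, 1.19 and 6.83 CPM in Yap-activated libraries. The groups overlapped, because Yap-activated replicate 2 lay within the Normal range. The log2 fold change of Slc2a3 was 2.65 (SE 0.70, adjusted p = 0.0139). Leaving out Normal replicate 2 (adjusted p = 0.0567) or 3 (0.0585) ended that call, as did voom (0.0764). Slc2a4, the insulin-responsive transporter GLUT4, is no member but belongs to the same step, and it went the other way, from 77.2 ± 8.24 to 4.18 ± 0.737 CPM (SD, n = 3; log2 fold change -4.20, adjusted p = 1.55e-06).

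Hexokinases trap glucose in the cell as glucose 6-phosphate. Hk2, the inducible isozyme (chromosome 6, 82725025 to 82774454, minus strand), had 27.5, 34.4 and 36.6 CPM in Normal and 142, 180.0 and 325 CPM in Yap-activated libraries, with no overlap. Hk2 rose by 2.72 on the log2 scale (SE 0.32, adjusted p = 3.53e-04). Hk1, the constitutive isozyme, went from 211, 246 and 257 CPM to 100.1, 129.8 and 179 CPM, lower in 3 of 3 Yap-activated libraries. It fell by 0.80 on the log2 scale (SE 0.21, adjusted p = 0.0111), but did not pass with library totals alone (-0.31, adjusted p = 0.263). Hk3, an isozyme of blood cells, had 0.903, 1.45 and 1.42 CPM in Normal and 4.30, 0.549 and 5.19 CPM in Yap-activated libraries, and did not pass (log2 fold change 1.41, adjusted p = 0.131). Without Yap-activated replicate 2 it passed (1.91, adjusted p = 0.00124). The low library for Hk3 and for Slc2a3, Yap-activated replicate 2, was also the lowest of its group for the summed neutrophil and macrophage markers, of which 9 of 11 rose and none was at 0 in every library. Among the 22 members that rose, replicate 2 was the lowest of its group at 3 (13.6%, against 33.6% of all genes that rose): Slc2a3, Pfkfb4 and Hif1a. The part of these cells in the Hk3, Slc2a3, Pfkfb4 and Hif1a values was not tested.

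In the upper steps, from glucose 6-phosphate to the triose phosphates, 3 of 7 genes rose, 1 fell and 3 did not pass, so that 57.1% were called, near the 59.5% of all genes. Pfkm, the muscle-type phosphofructokinase (chromosome 15, 98092589 to 98132451, plus strand), had 49.1, 51.7 and 62.8 CPM in Normal and 7.52, 8.59 and 12.5 CPM in Yap-activated libraries. It fell by 2.51 on the log2 scale (SE 0.21, adjusted p = 4.00e-05). Pfkp, the platelet-type isozyme, had 71.6, 81.8 and 70.5 CPM in Normal and 81.4, 161 and 205 CPM in Yap-activated libraries. Yap-activated replicate 1 lay within the Normal range, and the others lay above all Normal libraries. Pfkp rose by 0.999 (SE 0.31, adjusted p = 0.0266). The Pfkp call was lost without any 1 of the Normal libraries (adjusted p = 0.0794, 0.0634 and 0.0923), without Yap-activated replicate 2 (0.0648) or 3 (0.0718) and with voom (0.0515). Pfkl, the liver-type isozyme, stood at a log2 fold change of 0.05 (adjusted p = 0.843).

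Aldolases cleave fructose 1,6-bisphosphate. Aldoc, the brain-type isozyme, had 1.98, 2.66 and 2.403 CPM in Normal and 4.71, 9.04 and 17.3 CPM in Yap-activated libraries, with no overlap and a log2 fold change of 2.14 (SE 0.45, adjusted p = 0.00490). Aldoa, the main isozyme here, went from 369 ± 12 to 420 ± 80.6 CPM (SD, n = 3; log2 fold change 0.19, adjusted p = 0.336), and Gpi1, the isomerase before phosphofructokinase, from 317 ± 20.1 to 440 ± 144 CPM (0.47, adjusted p = 0.129). Both passed without Yap-activated replicate 1 (0.35, adjusted p = 0.0396, and 0.73, adjusted p = 0.00188) and with library totals alone (0.68, adjusted p = 0.00953, and 0.97, adjusted p = 0.0119). Tpi1, which interconverts the triose phosphates, had 295, 321 and 327 CPM in Normal and 341, 428 and 442 CPM in Yap-activated libraries. Its log2 fold change of 0.36 (SE 0.14, adjusted p = 0.0496) lay at the threshold. The Tpi1 call was lost without any of the Normal libraries (adjusted p = 0.143, 0.120 and 0.0958), without Yap-activated replicate 2 (0.124) or 3 (0.136), with no filter (0.0653) and with voom (0.0521).

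In the lower steps, from glyceraldehyde 3-phosphate to pyruvate, 2 of 6 genes rose, 1 fell and 3 did not pass, so that 33.3% were higher, near the 29.8% of all genes. Pgk1, the phosphoglycerate kinase that makes the first ATP of the pathway (chromosome X, 106187100 to 106203699, plus strand), had 68.6, 70.1 and 74.7 CPM in Normal and 131, 178 and 180 CPM in Yap-activated libraries. Pgk1 rose by 1.20 (SE 0.14, adjusted p = 2.09e-04). Gapdh, the dehydrogenase of this stretch that is widely used as a reference gene, had 324, 354 and 367 CPM in Normal and 440, 489 and 607 CPM in Yap-activated libraries. Its groups did not overlap, and it rose by 0.56 (SE 0.15, adjusted p = 0.0134). It did not pass when Normal replicate 1 was left out (0.50, adjusted p = 0.0524). Eno3, the muscle-type enolase, had 14.4, 10.98 and 11.9 CPM in Normal and 6.68, 6.51 and 7.70 CPM in Yap-activated libraries, and fell by 0.84 (SE 0.17, adjusted p = 0.00341). It did not pass with library totals alone (-0.34, adjusted p = 0.102). Summed muscle markers ran from 180 to 274 CPM in Normal and from 98.4 to 207 CPM in Yap-activated libraries, with 3 of 6 tested lower and 1 higher. Of the other two markers, 1 was at 0 in every library and Ckm, below the filter, had 0.0716 to 0.411 CPM. The part of muscle cells in the Eno3 and Pfkm values was not tested.

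Eno1, the widespread enolase, Pkm, the muscle and proliferating-cell pyruvate kinase, and Pgam1, a phosphoglycerate mutase, did not pass. Eno1 stood at a log2 fold change of 0.18 (adjusted p = 0.367) and Pkm at 0.01 (SE 0.16, adjusted p = 0.965), from 1015 ± 48.3 to 1022 ± 179 CPM (SD, n = 3). With library totals alone both passed, at 0.68 (adjusted p = 0.0120) and 0.51 (adjusted p = 0.0332), about the shift of all genes under that scaling. The table counts Pkm by symbol, so its M1 and M2 splice forms are counted together. Pgam1 stood at -0.38 (adjusted p = 0.146), and at 0.12 with library totals alone. Gapdh, Eno1, Pgam1, Aldoa, Pgk1, Tpi1 and Ldha have processed copies in the genome, and the sources used here do not give how reads that match several places were counted, so their levels are uncertain. Of 10 such copies looked for by symbol, 6 were in the table and 1, Eno1b, passed the filter, at 0.372 to 0.980 CPM.

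Lactate handling held the largest changes in both directions. Ldhb, the heart-type lactate dehydrogenase subunit that favours the use of lactate (chromosome 6, 142490249 to 142507957, minus strand), had 258, 252 and 328 CPM in Normal and 4.91, 4.48 and 6.03 CPM in Yap-activated libraries. The Yap-activated values lay close together and rested on at least 145 reads each. Ldhb fell by 5.76 on the log2 scale (SE 0.19, adjusted p = 6.62e-07), to 0.0185 times the Normal level. Ldha, the subunit that favours the making of lactate (chromosome 7, 46841475 to 46855627, plus strand), had 366, 415 and 404 CPM in Normal and 703, 923 and 839 CPM in Yap-activated libraries, and rose by 1.06 (SE 0.15, adjusted p = 5.04e-04). Slc16a3, the lactate exporter MCT4 of glycolytic cells (chromosome 11, 120948480 to 120960868, plus strand), had 2.48, 4.68 and 4.08 CPM in Normal and 112, 196 and 238 CPM in Yap-activated libraries. The log2 fold change of Slc16a3 was 5.60 (SE 0.38, adjusted p = 3.16e-05), or 48.5-fold. Slc16a7, the high-affinity transporter MCT2, went the other way, from 344 ± 92.0 to 2.01 ± 0.920 CPM (SD, n = 3; log2 fold change -7.38, adjusted p = 8.92e-06), while Slc16a1, the widespread MCT1, stood at -0.03 (adjusted p = 0.882). Slc16a1 was picked after its values were seen, to complete the step.

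The Pfkfb enzymes set the level of fructose 2,6-bisphosphate, the main activator of phosphofructokinase, and both members rose. Pfkfb3 had 49.2, 61.7 and 83.1 CPM in Normal and 127, 194 and 227 CPM in Yap-activated libraries (log2 fold change 1.501, SE 0.26, adjusted p = 0.00227). Pfkfb4 had 4.89, 4.73 and 4.93 CPM in Normal and 12.6, 6.58 and 16.5 CPM in Yap-activated libraries (1.29, SE 0.31, adjusted p = 0.00854). Neither gene's groups overlapped, although Pfkfb4 in Yap-activated replicate 2 stood close above the Normal libraries.

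**Figure D2:**
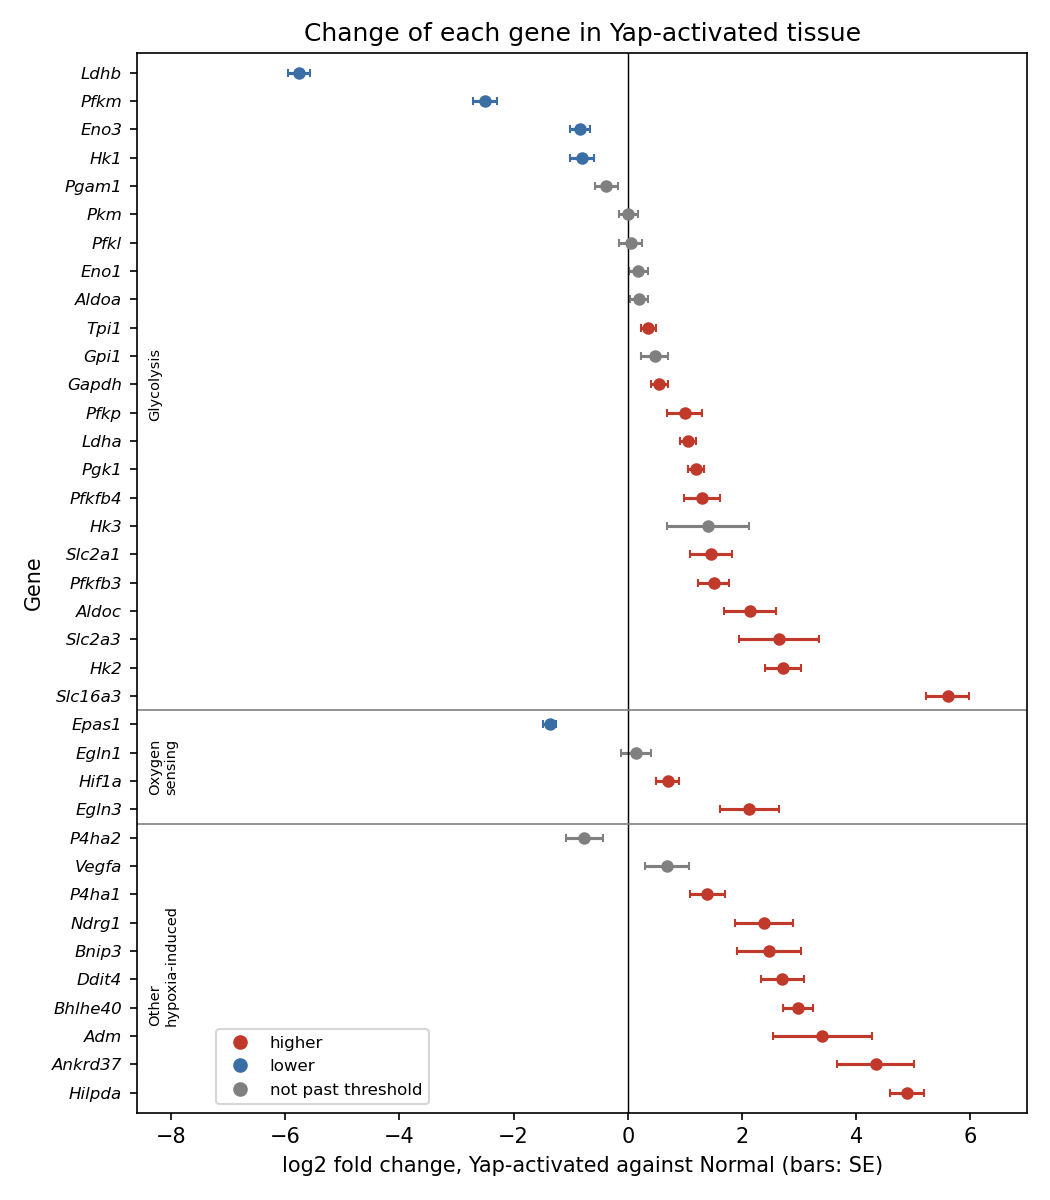
Log2 fold change of each gene, Yap-activated against Normal, with bars of 1 SE, sorted within the 3 groups of genes; red passed the threshold as higher, blue as lower and grey did not pass. The other hypoxia-induced genes run from -0.76 to 4.89 and the glycolysis genes from -5.76 (Ldhb) to 5.60 (Slc16a3).

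Expression per length was used to compare isozymes of the same step, as reads per kilobase of annotated exon relative to the scaled library size (RPKM), and each isozyme's share of its step was computed in every library. Shares do not depend on the scaling between libraries. Hk2 held 15.0 to 16.4% of hexokinase expression in Normal and 62.5 to 68.9% in Yap-activated libraries, and Hk1 80.2 to 80.7% and 26.5 to 31.6%. The main hexokinase transcript was therefore Hk1 in every Normal library and Hk2 in every Yap-activated one. Ldha held 36.9 to 43.8% of lactate dehydrogenase expression in Normal and 98.5 to 99.0% in Yap-activated libraries, with Ldhb making up almost all of the rest. Slc2a1 went from 49.8 ± 4.08% to 96.1 ± 3.03% of the 4 glucose transporters counted, and Slc2a4 from 49.9 ± 4.08% to 2.33 ± 1.47% (SD, n = 3).

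Among phosphofructokinases Pfkm went from 37.8 ± 2.24% to 8.14 ± 1.58%, Pfkp from 13.0 ± 1.55% to 30.1 ± 4.43% and Pfkl from 49.3 ± 1.04% to 61.8 ± 4.19% (SD, n = 3). The share of Pfkl went up although its level did not pass the test, while that of Pfkm went down. Among lactate transporters Slc16a3 went from 1.31 ± 0.321% to 58.4 ± 9.16%, Slc16a7 from 54.1 ± 9.10% to 0.294 ± 0.0996%, and Slc16a1 stood at 44.6 ± 9.11% and 41.3 ± 9.21% (SD, n = 3). Eno1 went from 88.9 ± 2.01% to 93.7 ± 1.21% of enolase and Eno3 from 10.04 ± 1.84% to 5.26 ± 0.817% (SD, n = 3). Of 33 shares computed, 25 did not overlap between the groups, while the levels of 67.6% of all genes tested did not overlap. Each of the 25 had a 2-sided exact permutation p of 0.1, the smallest that 3 against 3 libraries can give (0.132 adjusted over the 33). The shares of a step make up its whole, so a higher share of an isozyme lowers the rest. They are therefore not separate outcomes, and neither the count of 25 nor the adjustment allows for this. Pkm and Pklr, the pyruvate kinases, mirror each other exactly and are both among the 25. The shares depend on the length used: with the longest transcript in place of all annotated exons, Ldha held 50.5 ± 3.62% of its step in Normal and Ldhb 49.5 ± 3.61% (SD, n = 3), so which of them was ahead in Normal is not settled. With that length Hk2 still held more than Hk1 in Yap-activated tissue, at 51.4 ± 3.91% against 43.3 ± 3.23% (SD, n = 3).

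**Figure D3:**
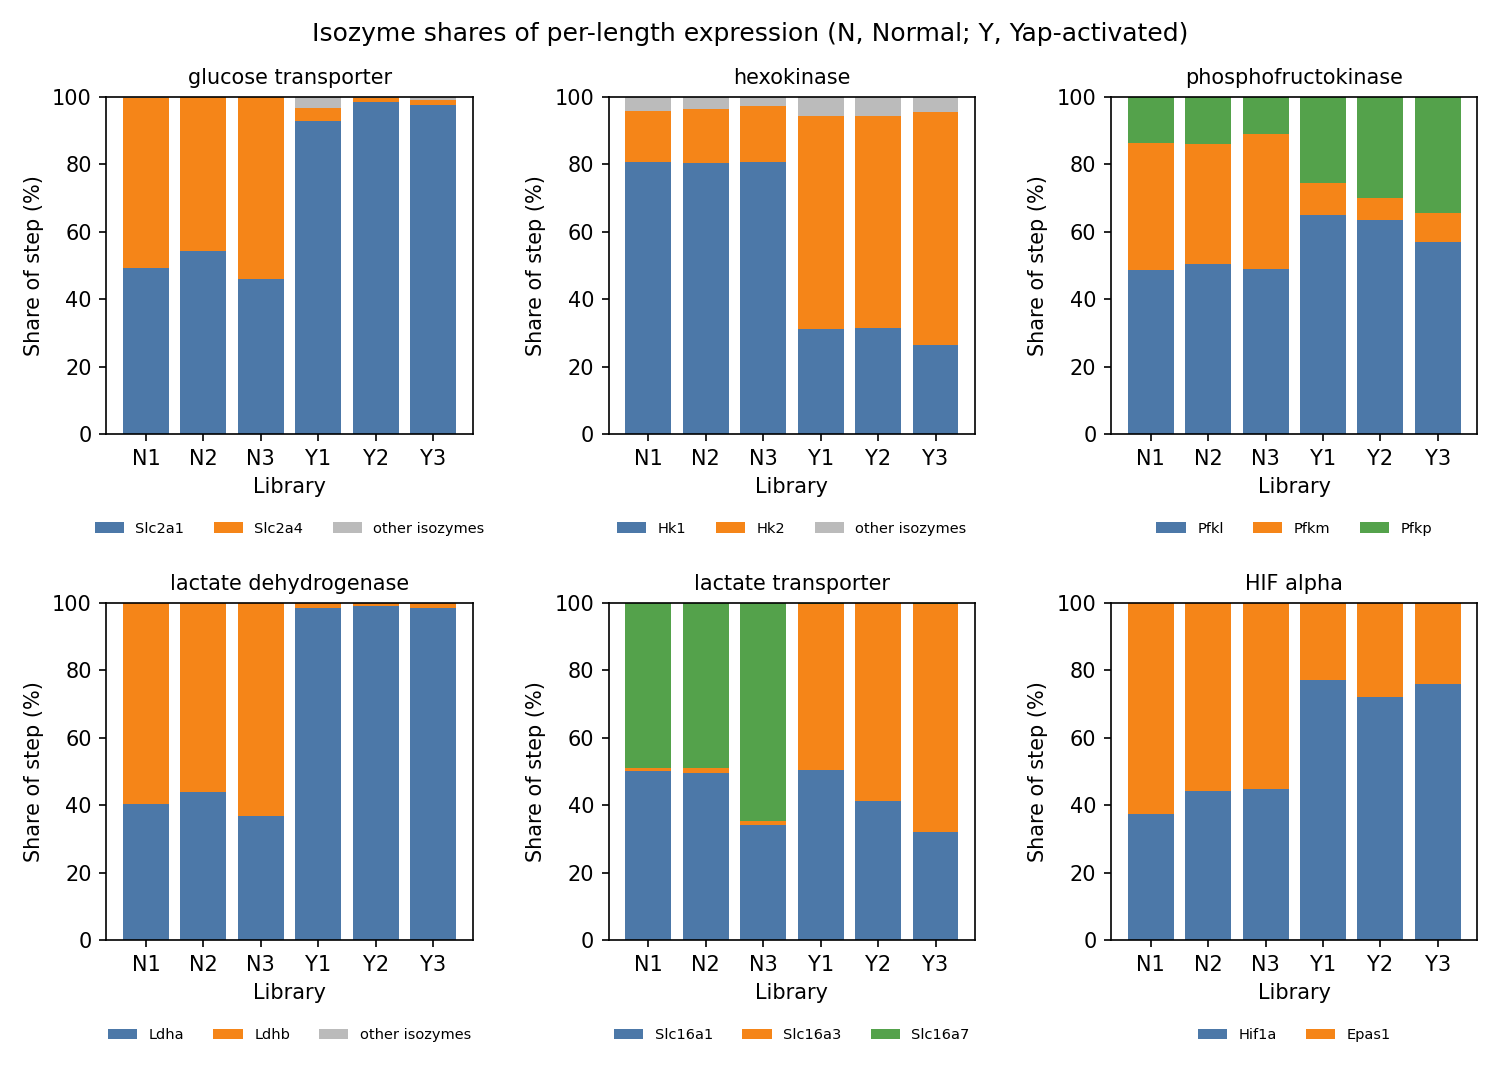
Share (%) of each isozyme in the per-length expression of its step, as stacked bars for Normal (N) and Yap-activated (Y) libraries. Hk1 gives way to Hk2, Ldhb to Ldha, Slc2a4 to Slc2a1 and Slc16a7 to Slc16a3 in all 3 Yap-activated libraries.

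Isozymes were also summed over each step, with the length of all annotated exons. The totals were not computed with the longest transcript, so they hold for the exon length only. Lactate dehydrogenase summed to 297 ± 29.7 RPKM in Normal and 252 ± 33.5 RPKM in Yap-activated tissue, and the lactate transporters to 53.1 ± 5.78 and 57.4 ± 12.7 RPKM (SD, n = 3), with overlap in both. Ldha has 3310 bases of exon and 1815 in its longest transcript, and Ldhb 1570 and 1304. The direction of the lactate dehydrogenase total is therefore not settled. Phosphofructokinase summed to 43.2 ± 4.02 and 36.0 ± 10.9 RPKM and pyruvate kinase to 209.9 ± 8.64 and 208 ± 35.8 RPKM (SD, n = 3), again with overlap. Of the 15 totals computed, 5 did not overlap, while the groups did not overlap at 67.6% of all genes tested. The 5 were phosphoglycerate kinase at 2.29 times the Normal mean, hexokinase at 1.59, glyceraldehyde phosphate dehydrogenase at 1.47, triose phosphate isomerase at 1.28 and phosphoglycerate mutase at 0.728 times (2-sided exact permutation p = 0.1 each, 0.3 adjusted over the 15). The totals of Pgk1, Gapdh and Tpi1 each rest on that gene alone. Hk1 has 8532 bases of exon and 4278 in its longest transcript, and Hk2 5969 and 5513, so the hexokinase separation is not settled. With library totals alone, the phosphoglycerate mutase, phosphofructokinase, pyruvate kinase and lactate dehydrogenase totals turned to log2 ratios of 0.04, 0.24, 0.49 and 0.25.

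The 4 genes of oxygen sensing moved apart. Hif1a, the HIF alpha subunit of most glycolytic targets (chromosome 12, 73901375 to 73947530, plus strand), had 49.2, 64.0 and 66.2 CPM in Normal and 109.6, 70.1 and 112 CPM in Yap-activated libraries. Yap-activated replicate 2 was close above the Normal libraries. It rose by 0.70 (SE 0.20, adjusted p = 0.0175), but not when Normal replicate 1 was left out (0.57, adjusted p = 0.0664). Epas1, the HIF alpha subunit HIF2A, which endothelium expresses strongly (chromosome 17, 86753700 to 86833410, plus strand), had 78.4, 76.6 and 77.1 CPM in Normal and 30.6, 25.9 and 33.4 CPM in Yap-activated libraries. It fell by 1.37 (SE 0.11, adjusted p = 3.89e-05). Of 9 endothelial markers 6 fell and 3 did not pass, and their summed level went from 194 to 210 CPM in Normal to 50.5 to 91.9 CPM in Yap-activated libraries; their part in the Epas1 value was not tested. By share of per-length HIF alpha expression, Hif1a held 37.3 to 44.9% in Normal and 71.9 to 77.2% in Yap-activated libraries. HIF is controlled mainly at the protein level, which RNA counts do not measure.

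Egln3, a prolyl hydroxylase that is itself a HIF target (chromosome 12, 54178981 to 54203860, minus strand), had 45.1, 50.7 and 39.8 CPM in Normal and 65.0, 212 and 316 CPM in Yap-activated libraries. Replicate 1 was only slightly above Normal. The log2 fold change was 2.13 (SE 0.52, adjusted p = 0.0115), and 2.56 without Yap-activated replicate 1. Egln1, the main hydroxylase of HIF, stood at 0.15 (SE 0.26, adjusted p = 0.645), with 40.1, 61.2 and 88.7 CPM in Yap-activated libraries on both sides of the Normal mean of 57.1 CPM. Egln2, the remaining family member, fell by 0.67 (SE 0.10, adjusted p = 0.00101). By share of the 3 hydroxylases, Egln3 went from 29.0 ± 2.01% to 63.9 ± 15.5%, Egln2 from 43.7 ± 0.952% to 18.8 ± 12.3% and Egln1 from 27.3 ± 2.87% to 17.3 ± 3.33% (SD, n = 3).

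Of the 10 other hypoxia-induced genes, 8 rose and 2, Vegfa and P4ha2, did not pass. Hilpda, which coats lipid droplets and inhibits their breakdown (chromosome 6, 29272488 to 29275446, plus strand), had 6.61, 6.15 and 5.50 CPM in Normal and 124, 162 and 257 CPM in Yap-activated libraries. All Yap-activated values were far above Normal, and the log2 fold change was 4.89 (SE 0.30, adjusted p = 1.66e-05). Ankrd37, a small ankyrin repeat gene that HIF induces, had 1.83, 3.14 and 1.93 CPM in Normal and 13.7, 79.96 and 47.1 CPM in Yap-activated libraries. Ankrd37 rose by 4.34 (SE 0.67, adjusted p = 0.00156), and 3.72 without Yap-activated replicate 2. Exons of Ankrd37 overlap those of Lrp2bp and Ufsp2 on the opposite strand, and no source used here gives the strand setting of the counting.

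Bhlhe40, a transcriptional repressor, and Ddit4, an inhibitor of mTORC1 signalling, were higher in 3 of 3 Yap-activated libraries. Bhlhe40 had 52.0, 63.2 and 55.7 CPM in Normal and 285, 499 and 568 CPM in Yap-activated libraries (log2 fold change 2.98, SE 0.26, adjusted p = 5.66e-05). Ddit4 had 38.8, 42.8 and 42.3 CPM in Normal and 127, 326 and 356 CPM in Yap-activated libraries (2.71, SE 0.38, adjusted p = 8.60e-04). For both, replicate 1 was the lowest of the Yap-activated libraries and still over every Normal one.

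Bnip3, a mitophagy receptor (chromosome 7, 138890836 to 138909519, minus strand), had 12.3, 13.3 and 13.9 CPM in Normal and 20.9, 91.9 and 106 CPM in Yap-activated libraries (log2 fold change 2.47, SE 0.56, adjusted p = 0.00812). Ndrg1, a stress-responsive differentiation gene, had 74.4, 74.3 and 70.9 CPM in Normal and 126, 423 and 596 CPM in Yap-activated libraries (2.38, SE 0.51, adjusted p = 0.00633). Adm, the gene of the vasodilator peptide adrenomedullin, had 12.8, 12.1 and 9.55 CPM in Normal and 13.9, 140.5 and 209.8 CPM in Yap-activated libraries (3.41, SE 0.87, adjusted p = 0.0137). In all 3 genes replicate 1 lay closest to the Normal libraries, and the other Yap-activated libraries stood well above it. Adm did not pass when Normal replicate 3 was left out (3.29, adjusted p = 0.0566) and with voom (2.69, adjusted p = 0.1005). Without Yap-activated replicate 3 its log2 fold change was 2.77, and without replicate 1 it was 3.94.

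The prolyl 4-hydroxylase subunits, which mature collagen, moved apart. P4ha1 had 17.0, 25.5 and 30.5 CPM in Normal and 40.0, 80.6 and 70.7 CPM in Yap-activated libraries, and rose by 1.39 (SE 0.31, adjusted p = 0.00696). P4ha2 had 101, 99.3 and 131 CPM in Normal and 35.6, 67.3 and 92.3 CPM in Yap-activated libraries. Its groups did not overlap, but it did not pass (log2 fold change -0.76, SE 0.32, adjusted p = 0.0804). P4ha2 passed with DESeq2 (-0.75, adjusted p = 0.0247) and without Yap-activated replicate 3 (-1.09, adjusted p = 0.0216). Summed fibroblast markers ran from 809 to 1218 CPM in Normal and from 383 to 625 CPM in Yap-activated libraries, with 3 of 7 lower; their part in the P4ha values was not tested. Vegfa, the angiogenic growth factor, had 219, 221 and 239 CPM in Normal and 168, 365 and 563 CPM in Yap-activated libraries, so that replicate 1 lay below Normal and the others above. Vegfa stood at 0.69 (SE 0.39, adjusted p = 0.166), and 1.04 without Yap-activated replicate 1 (adjusted p = 0.00259). It also passed with library totals alone (1.19, adjusted p = 0.0324).

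Set side by side, the 23 glycolysis genes gave 12 that rose (52.2%), 4 that fell and 7 that did not pass, with a median log2 fold change of 0.56. Of the 10 other hypoxia-induced genes 8 rose and 0 fell by edgeR, with a median of 2.59. P4ha2 was close to the threshold, at an unadjusted p of 0.0519 by edgeR's quasi-likelihood F-test. It fell by DESeq2, and by edgeR with the replicate block (adjusted p = 0.0239) and without Yap-activated replicate 3 (0.0216). Over all genes tested 29.8% rose, and the median was 0.01. With library totals alone the medians were 1.05, 3.09 and 0.50, each higher by about the shift of all genes. No test of the difference between the lists was made, since their members were chosen with results known. Within glycolysis the 12 that rose were Slc2a1, Slc2a3, Hk2, Pfkp, Aldoc, Tpi1, Gapdh, Pgk1, Ldha, Slc16a3, Pfkfb3 and Pfkfb4, and the 7 that did not pass were Hk3, Gpi1, Pfkl, Aldoa, Pgam1, Eno1 and Pkm.

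The Yap-activated libraries differed among themselves in these genes more than in most others. The highest Yap-activated value was a median of 2.02 times the lowest over the 37 genes and 3.08 times over the 10 hypoxia-induced genes, against 1.33 times over all genes tested. In Normal the corresponding medians were 1.22, 1.21 and 1.22. Yap-activated replicate 1 was the lowest of its group at 30 of the 37 genes (81.1%) and at 10 of the 10 hypoxia-induced genes, against 32.8% of all genes tested. Yap-activated replicate 3 was the highest at 31 of the 37 (83.8%), against 32.0% of all genes. On the scale of log2(CPM + 0.5) relative to the Normal mean, the median of the 10 hypoxia-induced genes was 0.74 in Yap-activated replicate 1, 2.86 in replicate 2 and 3.05 in replicate 3. The median of the 23 glycolysis genes was 0.12, 0.40 and 0.80 in the same libraries. Replicate 1 also had the lowest total count, the highest mitochondrial share of its group (13.8% against 7.49% and 9.30%) and the highest summed neutrophil and macrophage markers and erythroid markers of its group. Mitochondrial shares in Normal were higher, at 27.6%, 16.1% and 15.1% in replicates 1 to 3, with replicate 1 apart from the others. The part of these in the pattern was not tested. Without Yap-activated replicate 1, 14 of the 23 glycolysis genes and 9 of the 10 hypoxia-induced genes rose, against 12 and 8 with it. Over all genes, 4200 of 14867 tested rose without it, against 4345 of 14600 with it.

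**Figure D4:**
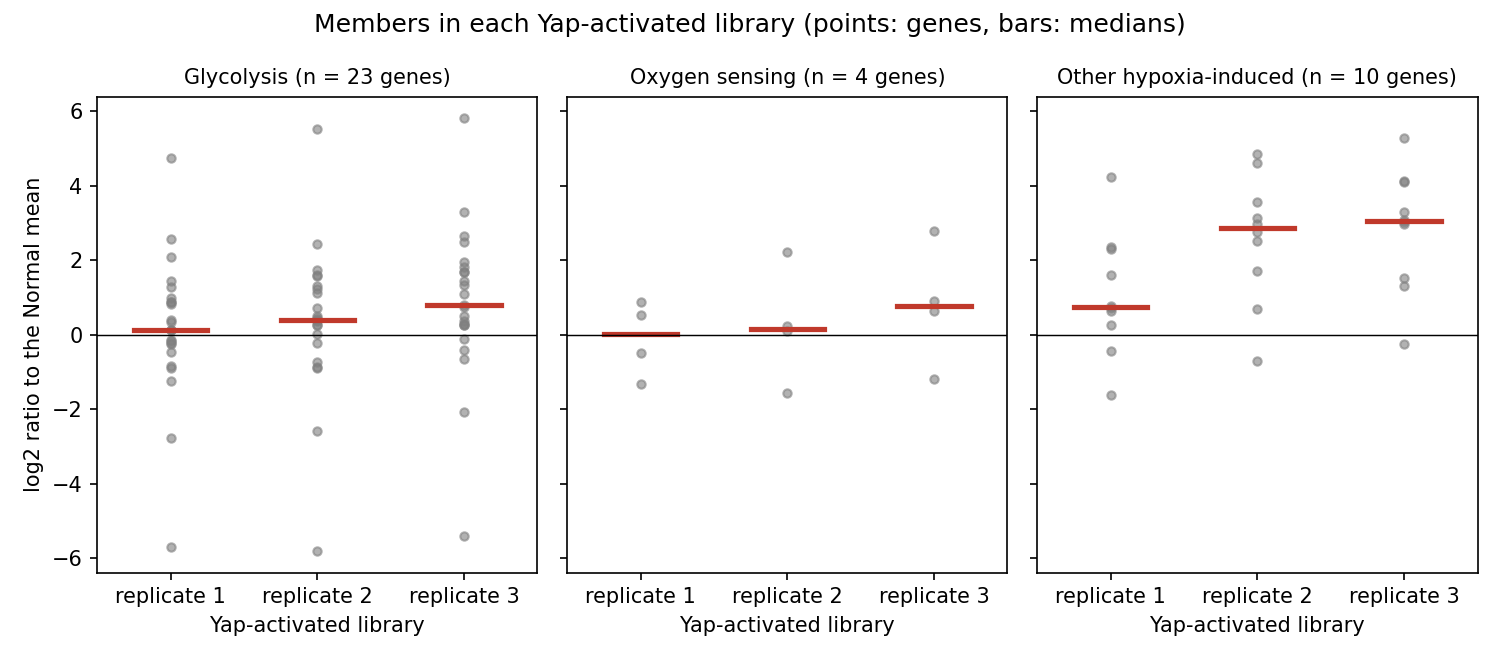
Log2 ratio of each gene (points) to its Normal mean, after adding 0.5 CPM, in each Yap-activated library, for the 3 groups of genes, with medians as bars. The median of the other hypoxia-induced genes is 0.74 in replicate 1 and 2.86 and 3.05 in replicates 2 and 3.

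Neighbouring pathways, here and below, were read from lists chosen with earlier results of these data known. Their shares are therefore descriptions and no independent support. Of 39 further hypoxia-induced genes tested, 23 rose (59.0%, against 29.8% of all genes), 3 fell and 13 did not pass, with a median log2 fold change of 0.89. Angptl4, an inhibitor of lipoprotein lipase, rose by 3.92 (SE 0.25), Hmox1, heme oxygenase, by 3.17, Wsb1 by 2.95 and Ero1l, an oxidase of the endoplasmic reticulum, by 2.48 (SE 0.56). Ero1l had 77.5, 104 and 95.3 CPM in Normal and 168, 472 and 905 CPM in Yap-activated libraries, with replicate 1 again the lowest. Replicate 1 was the lowest Yap-activated library at 29 of these 39 genes (74.4%). Not every classical target rose: Car9, carbonic anhydrase 9, stood at -0.35 (adjusted p = 0.374). Pdk1, an inhibitor of pyruvate entry, stood at 0.22 (adjusted p = 0.573). It is not among the 39 but in the list of pyruvate entry below. Car9 and Pdk1 were picked after their values were seen.

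Of 15 tested further components of the HIF pathway 2 rose, 4 fell and 9 did not pass. The share lower, 26.7%, was near the 29.7% of all genes. The share called, 40.0%, and the share higher, 13.3%, were below the 59.5% and 29.8% of all genes. Arnt2, a partner of HIF alpha, fell by 3.04 (SE 0.24), and Hif1an, the asparagine hydroxylase of HIF, by 0.66 (SE 0.10), while Ep300, a coactivator, stood at 0.14 (adjusted p = 0.344). Of 18 tested further isozymes and transporters of glycolysis 3 rose, 9 fell and 6 did not pass. The share called was 66.7%, near the 59.5% of all genes, and the share lower 50.0%, against 29.7%. Slc2a12, a glucose transporter, fell by 5.92 (SE 0.53, with as few as 2 reads in a Yap-activated library), and Bsg, the chaperone of the lactate transporters, stood at 0.65 (adjusted p = 0.0940).

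Of 13 genes of pyruvate entry into mitochondria 10 fell (76.9%, against 29.7% of all genes), 1 rose and 2 did not pass, with a median log2 fold change of -0.95. Pdha1 and Dld, subunits of pyruvate dehydrogenase, fell by 1.48 (SE 0.14) and 1.29 (SE 0.14), Mpc2, a subunit of the mitochondrial pyruvate carrier, by 1.34 (SE 0.11), and Pdk2, a kinase that inhibits the dehydrogenase, by 3.32 (SE 0.26). The fall of Ldhb, Slc2a4, Slc16a7 and these genes stands beside that of the genes listed as parietal markers, Hdc among them, of which 5 of 6 fell. The part of parietal cells in these values was not tested.

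In the pentose phosphate pathway, which branches off after hexokinase, 1 of 10 genes rose, 1 fell and 8 did not pass. H6pd rose by 0.73 (SE 0.18), Prps2 fell by 2.44 (SE 0.16), G6pdx, the entry enzyme, stood at -0.26 (adjusted p = 0.0819) and Pgd at 0.29 (adjusted p = 0.0857). Of 6 tested genes of gluconeogenesis 1 rose, 2 fell and 3 did not pass, so that 50.0% were called, near the 59.5% of all genes. Pck2, the mitochondrial PEP carboxykinase, rose by 1.30 (SE 0.18), Pcx, pyruvate carboxylase, fell by 2.53 (SE 0.37) and G6pc3 by 0.78 (SE 0.10).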

How the data were processed

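RNA was measured in 6 libraries of mouse gastric corpus epithelium, 3 Normal and 3 Yap-activated. The authors deposited whole-number read counts per gene symbol, not normalized. Per the submitters' processing notes, STAR 2.4.2a and DESeq2 were used, with GRCm38 (mm10) as the genome build. For the counting program, its strand setting and multiply mapped reads, the sources used here give nothing. Exons of Aldoa, Tpi1, Gapdh, Hk3, Pfkm, Pfkp and Ankrd37 overlap those of another gene in the table on the opposite strand, so reads of the partner can sit in their counts.

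Counts were tested in R 4.3.3 with edgeR 4.0.16 (filterByExpr with a minimum count of 10, TMM, robust quasi-likelihood F-test, Benjamini-Hochberg adjustment over 14600 genes, threshold 0.05). SEs were derived from the log2 fold change and the F statistic (absolute change over the root of F). Since no label says that libraries came from separate mice, p-values reflect only how these libraries vary, which may be technical. Gene positions and exon lengths came from GENCODE mouse release 21 (GRCm38), which holds 21523 of the 21526 symbols. Library totals are as given in the report; members had at least 17 reads in every library.

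The members and lists were chosen with earlier results of these data known. Every member is named with its change; those at the extremes of their role, or against its majority, were given per library, as were others beside them. In each pathway list the 3 genes with the smallest p and the most abundant were named. Alternatives were other scalings, other filters, DESeq2 1.42.0, limma 3.58.1 voom, a replicate block and leaving out each library.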

Additional observations from a re-analysis of the deposited data

How the results depend on the processing

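Counts of members were within 1.5 times of those reported under the other scalings, filters and tests, apart from the values given here. With library totals alone, 7522 of all genes were higher and 2299 lower, and 2 glycolysis genes were lower, Ldhb and Pfkm. With DESeq2 and with the replicate block 1 hypoxia-induced gene, P4ha2, was lower, and without single libraries 0 to 1. Without single libraries, 1 to 2 oxygen-sensing genes, 7 to 9 hypoxia-induced genes and 8 to 14 glycolysis genes were higher, and over all genes 3530 to 4304 were higher and 3674 to 4273 lower. Replicate numbers were not taken as pairs: same-numbered libraries' deviations correlated at 0.04, 0.0027 and 0.07. The replicate block called 8561 genes against 8682, added Pgam1 (-0.41, adjusted p = 0.0372) and ended the call of Adm (2.85, adjusted p = 0.0567). Of 518 member values under the alternatives 472 kept direction and call, 24 lost the call, 13 gained it and 9 changed sign, each of the 9 at a gene not called. These were Pgam1 at 0.12 with library totals, Pkm at -0.0225 with voom, -0.0039 with the block and -0.12 to 0.14 without single libraries, Pfkl at -0.0723 to 0.26 and Egln1 at -0.16 to 0.40 without single libraries. Step totals changed sign with library totals for phosphofructokinase (0.24), phosphoglycerate mutase (0.0354), pyruvate kinase (0.49), lactate dehydrogenase (0.25) and HIF alpha (0.36). Without single libraries the log2 ratio of totals ran from -0.00081 to 0.24 for enolase, -0.14 to 0.11 for pyruvate kinase, -0.0049 to 0.28 for the lactate transporters and -0.24 to 0.0318 for HIF alpha, and the change in the share of Slc16a1 from -8.56 to 1.31 percentage points. The cause of these changes was not tested. The 3 libraries a group, rather than depth, limit the exact tests, whose smallest p is 0.1.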
